A study of Rattus norvegicus with 8 samples.

Results

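Astrocytes clear water, potassium and bicarbonate from the extracellular space and pass solutes among themselves through gap junctions. The 9 genes described here serve these tasks or are used to recognize the cells: the connexins Gja1 and Gjb6, the potassium channel Kcnj10, the sodium pump subunit Atp1b2, the water channel Aqp4, the bicarbonate transporter Slc4a4, the folate enzyme Aldh1l1, the growth factor receptor Fgfr3 and the calcium-binding protein S100b. They were chosen by name, as the non-control spots of the array whose gene name is one of the 9. The array carried all 9 among its 35199 gene names, with 42 spots of 15 probes, and 34 spots of 14 probes passed the filters in all 8 rats, so that each of the 9 genes was among the 20787 quantified.

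The samples were total RNA from the dentate gyrus (DG) of 8 adult female Sprague-Dawley rats of 150 to 200 g, with no allele or transgene named in the labels, all ovariectomized (OVX) and taken through kainic acid-induced status epilepticus (SE). The 4 COS rats received oil, and the 4 CES rats received 2 µg of estradiol (E2) per dose in 4 doses spaced by 24 h. The labels of the CES rats read EB, and the study's methods name the compound as estradiol benzoate. The sample records put 2 doses before and 2 after SE, give 16 mg/kg of kainic acid and end SE with pentobarbital after 5 h. The study's methods describe a lower kainic acid dose, all injections before SE, a minimum of 2 h of seizures and an end by diazepam. Nothing in the files decides between the 2 accounts. The methods also time tissue collection in 2 ways, at 24 h after SE and at 2 h from seizure onset. OVX rats without SE were not analysed here, so the values compare oil with E2 after SE and say nothing of the change from before SE. The samples are numbered as replicates, and the p-values measure the spread between them.

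In the brain, Gja1 (connexin 43) and Gjb6 (connexin 30) form most of the channels that join astrocytes into a network. Kcnj10 (Kir4.1) and the sodium pump take up the potassium that firing neurons release, a load that rises sharply in seizures, and Aqp4 in the endfeet around vessels moves the water that follows. In injured or seizing tissue astrocytes also become reactive, a state recognized by intermediate filaments such as Gfap and Vim and by secreted proteins such as Timp1 and Lcn2.

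Each of 4 arrays on 1 slide held 2 rats of the same group, one labeled with Cy3 (replicates 1 and 3) and one with Cy5 (replicates 2 and 4). No array held both groups, so a difference between the groups cannot be told apart from a difference between their arrays. The number of spots at least 2 times above background ran from 32381 to 38553 in COS and from 30690 to 35352 in CES. A level is the log2 of a gene's signal over the median valid spot of its channel, so that 0 is that median, and a difference is CES minus COS on this scale. Over all 20787 genes the median difference was -0.25, and it moved between -0.30 and 0.14 with the scaling and filters, so the distance of a difference from this all-gene median is given too. Below, "relative to all genes" means that distance. Over all genes, limma called 7137 at an adjusted p under 0.05. In 3781 of them (53.0%) CES replicate 2 was the CES rat closest to the COS mean. CES replicate 3 was the closest in 2569, CES replicate 1 in 666 and CES replicate 4 in 121. On this count CES replicate 2 was the most frequent, but CES replicate 3 was also often the closest. The labels place CES replicate 2 in CES, and whether that sample or its treatment was as labeled was not tested. The calls of the 9 genes and the counts of the lists are given with and without it.

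The probes are given first, since some of the results rest on how well each was seen. A probe is a 60-base sequence fixed on the array, and its position is given on the rat build rn4 as in the files; an annotation of that build was not used, so exon and intron are not stated. Gja1 was read at chr20:35422026-35422085 by 10 spots, Gjb6 at chr15:36177768-36177827, Slc4a4 at chr14:20382443-20382502 and S100b at chr20:12791899-12791958 by 10 spots. Aldh1l1 was read by 1 probe that the files do not place. The probes of Kcnj10 (chr13:88370316-88370375), Fgfr3 (chr14:82684088-82684322 and chr14:82688053-82688112) and Atp1b2 (chr10:56421694-56421753) are printed because results turn on them: the Kcnj10 probe and the second Fgfr3 probe were not seen well above background, the first Fgfr3 probe is the 1 that was used, and this Atp1b2 probe is the 1 of 3 that was not called. No base is in capitals, since no part of them is singled out.
Kcnj10, probe A_43_P12609: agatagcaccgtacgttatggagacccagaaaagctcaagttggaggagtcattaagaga
Fgfr3, probe A_44_P187156: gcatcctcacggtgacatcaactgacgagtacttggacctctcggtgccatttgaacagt
Fgfr3, probe A_44_P233844: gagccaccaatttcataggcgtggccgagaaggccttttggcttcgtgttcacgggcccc
Atp1b2, probe A_44_P452240: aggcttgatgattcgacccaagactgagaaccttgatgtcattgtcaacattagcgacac
The 60 bases of the first Fgfr3 probe are spread over 235 bases of rn4. Its signal was well above background in 8 of 8 rats, while the second Fgfr3 probe and the Kcnj10 probe were well above background in 0 of 8.

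Of the 9 genes, 5 were higher in CES than in COS (Gjb6, Gja1, Aldh1l1, Slc4a4 and Atp1b2), 2 were lower (S100b and Fgfr3) and 2 were not called (Aqp4 and Kcnj10). Over all genes, limma called 5.74% higher and 28.6% lower in CES. The median difference of the 9 genes was 0.72, or 0.97 relative to all genes. Of the 8 genes other than Kcnj10, whose probe no rat showed well above background, 6 lay above the all-gene median, and the median of these 8 was 0.95. The CES and COS rats did not overlap for 4 of the 9: every CES rat was above every COS rat for Gjb6, Aldh1l1 and Atp1b2, which held for 1.55% of all genes, and every CES rat was below every COS rat for Fgfr3, which held for 19.7% of all genes. In bulk tissue, fewer cells of a type and less RNA per cell cannot be told apart.

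**Figure D1:**
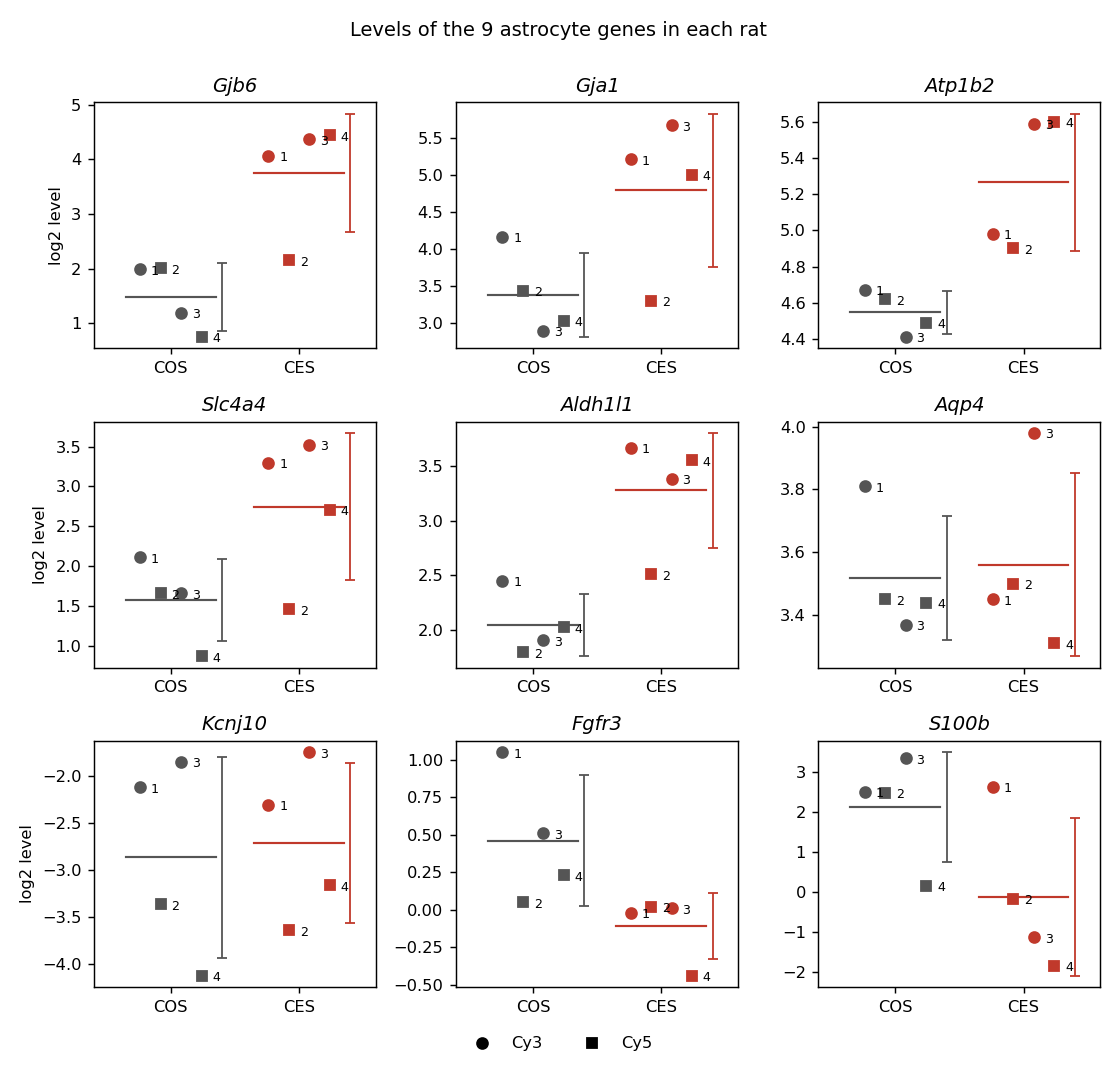
Levels (log2, relative to the median valid spot of the channel) of the 9 genes in each rat, with circles for Cy3 and squares for Cy5, the replicate number beside each point, a line at the group mean and a bar of 1 SD (n = 4). The axis of each panel has its own range. CES replicate 2 was the lowest CES rat in all 5 genes called higher in CES.

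Gjb6 showed the largest difference of the 9. Its levels were 1.99, 2.01, 1.19 and 0.75 in COS replicates 1 to 4 and 4.06, 2.15, 4.37 and 4.44 in CES replicates 1 to 4. CES replicates 1, 3 and 4 stood together far above every COS rat, and CES replicate 2 lay just above the highest COS rat. The mean rose from 1.49 ± 0.62 to 3.76 ± 1.08 (SD, n = 4 each), a 4.82-fold difference of 2.27 ± 0.47 on the log2 scale (SE, limma adjusted p = 0.00701). Without CES replicate 2 the difference was 2.80 (limma adjusted p = 8.09e-05), and without COS replicate 3 it was 2.09 and no longer passed (limma adjusted p = 0.0591).

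Gja1, the most abundant astrocyte connexin, changed in the same direction. Its levels were 4.16, 3.43, 2.89 and 3.03 in COS and 5.21, 3.30, 5.67 and 5.00 in CES. The groups overlapped through CES replicate 2, which lay below 2 of the COS rats, while the other CES rats lay above all of them. The mean rose from 3.38 ± 0.57 to 4.79 ± 1.03 (SD, n = 4 each), a 2.68-fold difference of 1.42 ± 0.41 (SE, limma adjusted p = 0.0241). The 6 Gja1 spots used gave nearly the same level within a rat, with an SD of 0.07 to 0.16 among spots, against an SD of 1.03 among the CES rats. The Cy5 rats averaged 0.79 below the Cy3 rats, and CES replicate 2 is a Cy5 rat. Without CES replicate 2 the difference was 1.86 (limma adjusted p = 0.0006), and the call was lost without COS replicate 3, COS replicate 4 or CES replicate 1 and under loess or quantile normalization (limma adjusted p = 0.0502 in both).

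The other connexins and pannexins, listed together with the junction scaffold gene Tjp1 (-0.41, not called), did not follow these 2. Of 13 listed genes 11 were quantified, of which 5 fell, 2 rose and 4 were not called, with a median difference of -0.47 (-0.21 relative to all genes). The vascular connexins Gja4 and Gja5 fell by 2.31 and 2.16 on the log2 scale (limma adjusted p = 0.00365 and 0.00307). Gja4 ranged from 2.14 to 3.27 in COS and from -0.25 to 1.42 in CES, without overlap, and Gja5 was well above background in 4 COS rats but in 2 CES rats. Panx1 fell by 1.11 and Gjb2, which astrocytes and leptomeninges express, fell by 0.94 (limma adjusted p = 0.00517 and 0.046). The neuronal connexin Gjd2 rose by 1.11 (limma adjusted p = 0.0201). With CES replicate 2 left out the list had 4 higher and 4 lower genes, Gjd2 at 1.37 among them, and without COS replicate 3 it had 0 higher and 3 lower. Under loess, quantile normalization, scaling on a common set of valid spots and the deposited log2 table, here called the 4 other scalings, 3 to 4 rose and 4 fell.

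**Figure D2:**
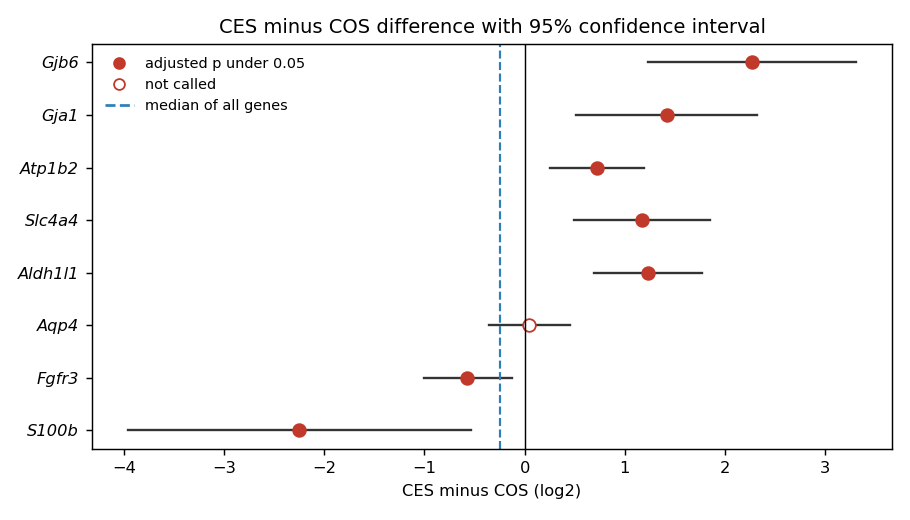
CES minus COS difference (log2) of 8 of the genes with its 95% confidence interval from limma, filled where the adjusted p was under 0.05, against 0 (solid line) and against the median of all genes at -0.25 (dashed line). Kcnj10 is left out because no rat showed it well above background. The intervals of the 5 higher genes lie above 0, that of Aqp4 spans 0, and that of S100b is the widest.

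Atp1b2, the beta subunit of the sodium pump that astrocytes favor, was the third gene without overlap among those higher in CES. Its levels were 4.67, 4.62, 4.41 and 4.49 in COS and 4.98, 4.90, 5.59 and 5.60 in CES. The COS rats were tightly grouped, with an SD of 0.12 that was smaller in only 0.789% of all genes, and CES replicates 3 and 4 were the highest. The mean rose from 4.55 ± 0.12 to 5.27 ± 0.38 (SD, n = 4 each), a 1.65-fold difference of 0.72 ± 0.21 (SE, limma adjusted p = 0.0263). Of its 3 probes 2 were called singly, A_43_P10996 with 0.71 and A_43_P11439 with 0.97 (limma adjusted p = 0.0262 and 0.0367). The groups stayed apart only in A_43_P10996, the brightest, with 5.93 to 6.16 in COS and 6.41 to 7.12 in CES. They overlapped in A_43_P11439, with 0.81 to 1.97 in COS and 1.82 to 2.85 in CES, and in the third probe. The probe printed above was the weakest, with levels of 0.03, -0.29, -0.24 and -0.80 in COS and 0.08, -0.59, 0.68 and -0.10 in CES, and it did not pass (0.34 ± 0.21, SE, limma adjusted p = 0.235). The gene's call was lost when any 1 COS rat or CES replicate 3 was left out (limma adjusted p = 0.0511 to 0.107), with differences of 0.52 to 0.77, and held without CES replicate 2 (0.87, limma adjusted p = 0.00629).

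Kcnj10, the inward rectifier that carries potassium into astrocytes, could not be compared. Its levels were -2.12, -3.36, -1.85 and -4.12 in COS and -2.31, -3.64, -1.75 and -3.16 in CES. The rats separated by dye and not by group: every Cy3 rat lay between -2.31 and -1.75 and every Cy5 rat between -4.12 and -3.16. No rat showed the probe well above background, so no fold is given, and a change of this gene was not detectable at this signal (limma adjusted p = 0.644).

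The other genes of potassium clearance moved in both directions. Of 13 listed, 12 were quantified, of which 1 rose, 2 fell and 9 were not called, with a median difference of 0.29 (0.54 relative to all genes). Kcnj16, the subunit that joins Kcnj10 in mixed channels, rose by 0.97 ± 0.25 (SE, limma adjusted p = 0.0157). Its levels were -0.80, -1.64, -0.58 and -2.07 in COS and -0.31, -1.10, 0.60 and -0.38 in CES, and it was well above background in 3 of the COS rats and in 4 of the CES rats. Atp1b3, another pump beta subunit, fell by 1.00 ± 0.18, with 6.19 to 6.56 in COS and 5.05 to 5.56 in CES, and the background potassium channel gene Kcnk10 fell by 1.63 ± 0.28 (SE, limma adjusted p = 0.00453 and 0.00441). Kcnk10 was well above background in 4 COS rats but in 2 CES rats. With CES replicate 2 left out the list had 4 higher and 3 lower genes, and without COS replicate 3 it had 0 higher and 2 lower. The balance turned with the scaling: under the 4 other scalings 5 to 6 genes rose and 2 fell.

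Aqp4, the water channel of the endfeet, was called in neither direction. Its levels were 3.81, 3.45, 3.37 and 3.44 in COS and 3.45, 3.50, 3.98 and 3.31 in CES. The ranges overlapped almost wholly, and the highest rat of each group was a Cy3 rat. The means were 3.52 ± 0.20 and 3.56 ± 0.29 (SD, n = 4 each), a difference of 0.04 with a 95% confidence interval of -0.36 to 0.45 (limma adjusted p = 0.871). The interval leaves out differences as large as those of Gjb6, Gja1, Aldh1l1 and Slc4a4. Its 4 probes lie between 6626431 and 6628474 on chromosome 18 of rn4 and were well above background in 8 of 8 rats, with differences of 0.09, 0.10, -0.32 and -0.06 from the lowest coordinate to the highest, none of which passed (limma adjusted p = 0.295 to 0.835). Relative to all genes Aqp4 was at 0.30, and under the scalings that move that median its difference reached 0.44, also without a call.

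Of 12 water channels and endfoot anchoring genes besides Aqp4, 8 were quantified, 1 rose and 0 fell at an adjusted p under 0.05, with a median difference of 0.08 (0.34 relative to all genes). The gene that rose was Aqp9, a channel for water, glycerol and lactate. Its levels were 1.85, 0.45, 1.03 and 0.40 in COS and 2.70, 1.57, 3.13 and 2.00 in CES, so that 3 of the CES rats lay above all COS rats. The difference was 1.42 ± 0.22 (SE, limma adjusted p = 0.00346), and it stayed called without COS replicate 3 (1.25, limma adjusted p = 0.0436) and without CES replicate 2 (1.52, limma adjusted p = 0.00045). The list had 2 higher genes without CES replicate 2 and 3 under the 4 other scalings.

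Slc4a4, which moves bicarbonate with sodium and so couples neuronal firing to astrocyte pH, was higher in CES. Its levels were 2.11, 1.66, 1.66 and 0.87 in COS and 3.30, 1.46, 3.52 and 2.71 in CES. CES replicate 2 lay below 3 COS rats, and the other CES rats lay above all COS rats. The mean rose from 1.57 ± 0.51 to 2.75 ± 0.93 (SD, n = 4 each), a 2.26-fold difference of 1.17 ± 0.30 (SE, limma adjusted p = 0.0166). Without CES replicate 2 it was 1.50 (limma adjusted p = 0.000527), and without COS replicate 3, COS replicate 4 or CES replicate 1 it was 1.04 to 1.12 and no longer passed. Of 9 other bicarbonate and pH genes 8 were quantified, 0 rose and 1 fell, with a median of -0.28 (-0.02 relative to all genes). The gene that fell was Car8, a carbonic anhydrase relative without catalytic activity, by 0.62 ± 0.20 (SE, limma adjusted p = 0.035). This list had 1 higher and 2 lower genes without CES replicate 2, and 0 of either without COS replicate 3. Under the 4 other scalings 2 rose and 0 fell.

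Aldh1l1, a folate enzyme widely used to mark astrocytes as a class, was the gene of the 9 with the smallest adjusted p. Its levels were 2.45, 1.80, 1.91 and 2.03 in COS and 3.66, 2.51, 3.38 and 3.55 in CES. No CES rat reached down to the COS range, and CES replicate 2 was again the lowest of its group. The mean rose from 2.05 ± 0.28 to 3.28 ± 0.52 (SD, n = 4 each), a 2.34-fold difference of 1.23 ± 0.24 (SE, limma adjusted p = 0.00598). It was 1.46 without CES replicate 2 (limma adjusted p = 0.000279), and without COS replicate 3 it was 1.09 (limma adjusted p = 0.0584).

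Fgfr3, a receptor for fibroblast growth factors that marks astrocytes and their precursors, was lower in CES on its 1 readable probe. Its levels were 1.05, 0.05, 0.51 and 0.23 in COS and -0.02, 0.02, 0.01 and -0.44 in CES. The groups did not overlap, but COS replicate 2 and CES replicate 2 were 0.05 and 0.02, nearly equal. The mean fell from 0.46 ± 0.44 to -0.11 ± 0.22 (SD, n = 4 each), a difference of -0.57 ± 0.20 (SE, limma adjusted p = 0.0475). Relative to all genes it was -0.31, and with loess, quantile normalization, scaling on a common set of valid spots or the deposited log2 table the difference was -0.16 to -0.19 and was not called (limma adjusted p = 0.562 to 0.648). The call was lost in 6 of the 8 fits that left out 1 rat: without any 1 of the COS rats (limma adjusted p = 0.0586 to 0.179), down to -0.41 without COS replicate 1, and without CES replicate 1 (0.155) or CES replicate 3 (0.0504). It held without CES replicate 2 (-0.70, limma adjusted p = 0.0131). The other FGF genes that passed also fell: of 7 listed 5 were quantified, 2 fell and 0 rose, with a median of -0.64 (-0.39 relative to all genes). The ligand Fgf2 fell by 1.22 ± 0.22, from 1.96 to 2.40 in the COS rats to 0.44 to 1.42 in the CES rats, and the receptor Fgfr1 fell by 0.75 ± 0.21 (SE, limma adjusted p = 0.00469 and 0.0219). With CES replicate 2 left out 4 of the 5 fell, and with COS replicate 3 left out 1 did, as under the 4 other scalings.

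S100b, a calcium-binding protein that astrocytes make and release, had the widest spread of the 9. Its levels were 2.50, 2.48, 3.34 and 0.15 in COS and 2.63, -0.17, -1.13 and -1.85 in CES, a 36.4-fold span over the 8 rats. The 4 high rats were COS replicates 1, 2 and 3 and CES replicate 1, and the groups overlapped widely. The within-group SD of 1.37 in COS and 1.96 in CES was larger than that of 99.2% and 99.7% of all genes, while the 9 spots used differed within a rat by an SD of only 0.08 to 0.20. The mean fell from 2.12 to -0.13, a difference of -2.25 ± 0.77 (SE, limma adjusted p = 0.0455), with a 95% confidence interval of -3.96 to -0.54. The probe cleared the background mark in 7 of 8 rats, all but CES replicate 3. The call was lost under 13 of the 22 alternatives that gave a value, among them loess (-1.90, limma adjusted p = 0.177) and leaving out CES replicate 3 (-1.30, limma adjusted p = 0.0797), and it held without CES replicate 2 (-2.60, limma adjusted p = 0.0219).

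**Figure D3:**
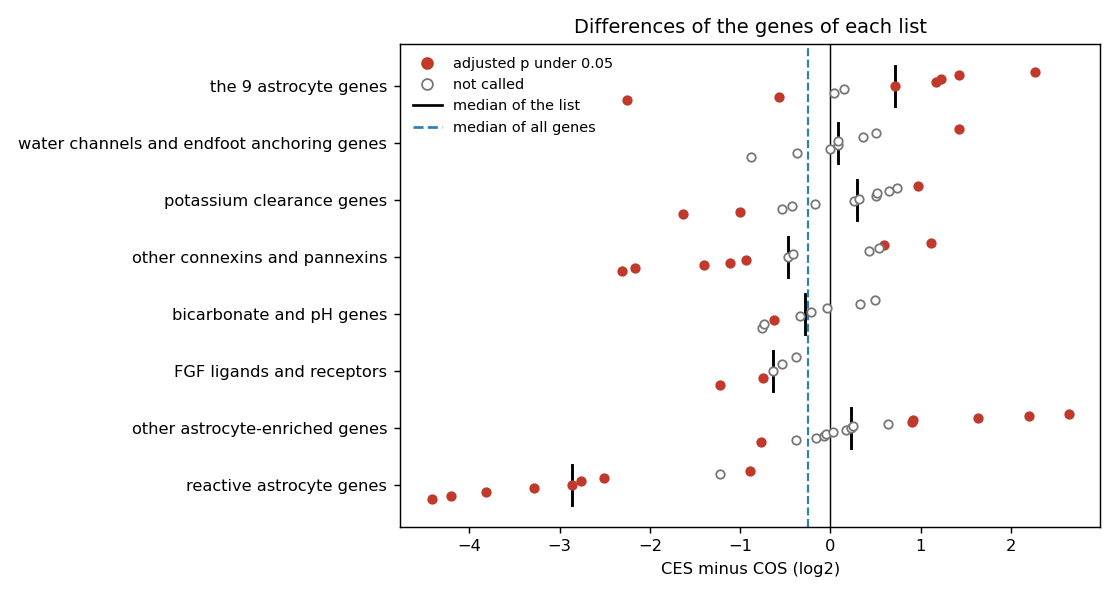
CES minus COS differences (log2) of the quantified genes of each list, 1 point per gene, filled where the limma adjusted p was under 0.05, with a bar at the median of each list, a solid line at 0 and a dashed line at the median of all genes (-0.25). Kcnj10 is the point of the first row at 0.15. Of the lists shown, the reactive astrocyte genes have the lowest median, -2.86, and the 9 astrocyte genes the highest, 0.72. Lists of markers of other cell types are not shown, and that of CA1 and CA3 pyramidal neurons had a higher median, 0.98.

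Other genes enriched in astrocytes were also called in both directions. Of 16 listed 15 were quantified, 5 rose, 1 fell and 9 were not called, with a median of 0.23 (0.48 relative to all genes). Cldn10, a claudin, had levels of 0.09, -0.65, -0.86 and -1.80 in COS and 2.85, -0.62, 2.84 and 2.28 in CES, and rose by 2.64 ± 0.56 (SE, limma adjusted p = 0.00785). Slc7a10, a serine transporter, rose by 2.20 ± 0.39 and Slc25a18, a mitochondrial glutamate carrier, by 1.64 ± 0.32 (SE, limma adjusted p = 0.00469 and 0.0059). Slc7a10 was 0.57, 0.05, -0.28 and -0.54 in COS and 2.71, 0.54, 3.13 and 2.25 in CES, again with CES replicate 2 inside the COS range. The other 2 that rose were the glycolytic enzyme Aldoc by 0.92 and the neurotensin receptor Ntsr2 by 0.91 (limma adjusted p = 0.0283 and 0.0225). Glul, the glutamine synthetase of astrocytes, fell by 0.77 ± 0.18, from 5.97 to 6.35 in the COS rats to 5.17 to 5.68 in the CES rats (SE, limma adjusted p = 0.0117). Leaving out CES replicate 2 gave Cldn10 a difference of 3.34, Slc7a10 2.66 and Slc25a18 1.96, and the list then had 6 higher and 1 lower genes, against 1 higher and 0 lower without COS replicate 3. Under the 4 other scalings 4 to 5 rose, and Glul was called in 1 of the 4.

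The reactive astrocyte genes were mostly called lower in CES, as were S100b and Fgfr3 of the 9. Of 10 listed 9 were quantified and 8 fell, with a median of -2.86 (-2.61 relative to all genes), and in each of those 8 but Lcn2 every CES rat was below every COS rat. Cd44, a hyaluronan receptor, was 5.67, 5.50, 5.92 and 5.41 in COS and 0.10, 4.32, 0.52 and -0.12 in CES, and fell by 4.42 ± 0.79 (SE, limma adjusted p = 0.00468). CES replicate 2 was close to the COS rats, and the other CES rats were far below them. Timp1, a protease inhibitor, fell by 4.20 ± 0.90 and Lcn2, an iron-scavenging protein, by 3.82 ± 0.93 (SE, limma adjusted p = 0.00805 and 0.0131). Gfap, the gene that was not called, was 5.87, 5.63, 5.96 and 6.04 in COS and 3.48, 5.58, 5.54 and 4.02 in CES (-1.22 ± 0.44, SE, limma adjusted p = 0.0532). Several of these genes are also made by microglia, vessels and other cells, so the list does not read astrocytes alone. All 9 fell when CES replicate 2 was left out, and without COS replicate 3 the call held for 1, the lipid receptor gene S1pr3 (-0.86, limma adjusted p = 0.048). Leaving out CES replicate 2 gave Cd44 a difference of -5.52, Timp1 -5.35 and Lcn2 -5.11. Under the 4 other scalings 4 to 6 of the 9 passed as lower, with a median of -2.50 to -2.46.

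CES replicate 2 differed from the rest of its group in both sets. Averaged over the 5 genes called higher, the level minus the COS mean was 1.63, 0.26, 1.90 and 1.65 in CES replicates 1 to 4, and averaged over the 9 quantified reactive genes it was -3.59, -0.68, -3.01 and -4.26. The COS rats ran from -0.37 to 0.47 and from -0.22 to 0.15 on these averages. CES replicate 2 was close to the COS rats in both, and it shared its array with CES replicate 1. The 5 genes were chosen by their own test, so their average is a description.

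**Figure D4:**
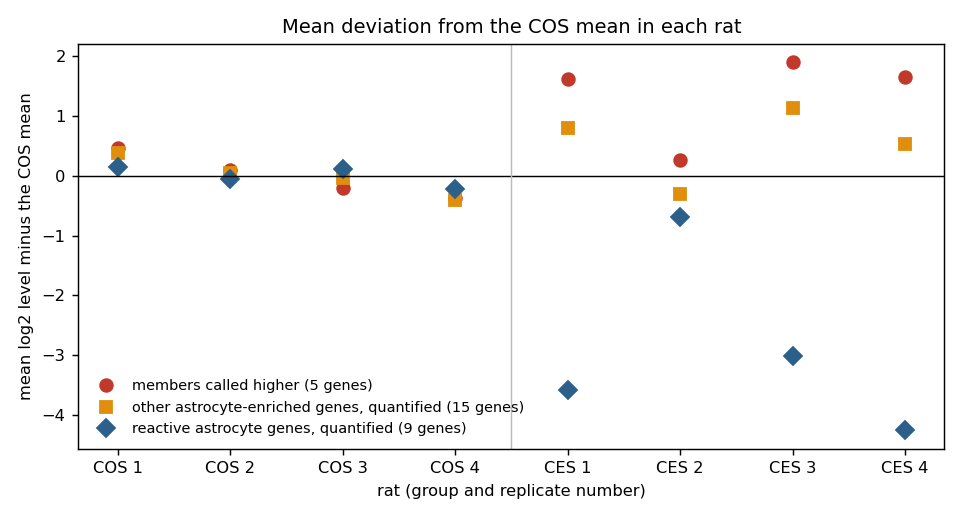
Mean over genes of the log2 level minus the COS mean, in each rat, for the 5 genes called higher in CES (circles), the 15 quantified other astrocyte-enriched genes (squares) and the 9 quantified reactive astrocyte genes (diamonds). In CES replicates 1, 3 and 4 the circles lie at 1.63 to 1.90, the squares at 0.54 to 1.13 and the diamonds at -4.26 to -3.01. In CES replicate 2 they lie at 0.26, -0.30 and -0.68. The genes of the circles were chosen by their own test.

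Markers of other cell types moved as well, and their part in these results was not tested. Pyramidal neuron markers of CA1 and CA3, which border the DG, were called higher for 4 of 5 quantified genes of 6, and their summed level (log2) was 4.09 to 4.72 in COS and 4.67 to 5.61 in CES. Among those 4, Fibcd1 was well above background in 0 COS rats and 2 CES rats. Granule neuron markers, of which 4 of 7 were quantified, fell for 3, with summed levels of 3.65 to 4.48 and 3.14 to 3.68. Of those 3, Tdo2 was well above background in 0 COS rats and 0 CES rats, and the defining granule gene Prox1 was not quantified. Microglia markers fell for 5 and rose for 1 of 9 (7.62 to 8.19 and 6.38 to 7.37), and endothelial and pericyte markers fell for 4 and rose for 1 of 7 quantified of 8 (7.20 to 7.41 and 5.66 to 6.54). Interneuron markers fell for 2 of 5 quantified of 6 (7.57 to 8.41 and 6.14 to 7.25), and general neuron markers rose for 3 and fell for 1 of 6 quantified of 8 (8.67 to 9.07 and 8.78 to 9.20). Oligodendrocyte markers rose for 1 and fell for 1 of 8 (7.98 to 8.81 and 8.35 to 8.96), and those of their precursors fell for 1 of 4 quantified of 5 (6.23 to 7.16 and 5.73 to 6.59). Markers of choroid plexus and ependyma fell for 1 of 4 quantified of 5, and their sum spread widely within both groups (4.31 to 9.27 and 4.17 to 7.60), with the highest value in COS replicate 2, where Ttr was 9.22. Each sum adds linear levels, so the brightest genes of a list set most of it and it is not a level of the cell type. Slc2a1 was 6.88 to 7.19 in COS and 5.03 to 6.16 in CES, while Cldn5 of the endothelial list was not called (-0.25). Sst was 7.14 to 8.18 and 5.35 to 6.85, while Pvalb of the interneuron list was not called (0.51). With CES replicate 2 left out, the summed levels of CES were 5.31 to 5.61 for the pyramidal and 6.38 to 7.11 for the microglia markers. They were 5.66 to 5.97 for the endothelial and 6.14 to 6.74 for the interneuron markers. In these lists 4, 6, 5 and 4 genes were then called in the direction given above. General neuron markers then rose for 4 and fell for 1, and granule neuron markers fell for 3. Oligodendrocyte markers then rose for 2 and fell for 1, and choroid plexus and ependyma markers fell for 1. Those of the oligodendrocyte precursors had 0 calls without CES replicate 2. Without COS replicate 3, 2 of the pyramidal markers were called higher, and 1 of the microglia and 2 of the endothelial markers lower. The granule neuron, interneuron and general neuron markers then had 0 calls. Under the 4 other scalings 4 of the pyramidal markers were called higher. Called lower were 1 to 2 of the microglia, 0 to 2 of the granule neuron, 2 to 3 of the endothelial and 1 to 2 of the interneuron markers.

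For each gene the closest profile over the 8 rats, after centering every gene on its mean, was found among the 20786 other genes by root mean square distance in log2 units. Gjb6 was closest to Slc7a10 (0.319), Gja1 to the growth factor gene Ptn (0.17), Aldh1l1 to the glutamate receptor gene Grm3 (0.15) and Slc4a4 to the unnamed transcript TC598736 (0.136). Atp1b2 was closest to Olr309 (0.134), Aqp4 to Ptprf (0.105), Fgfr3 to Cxcr4 (0.132) and Kcnj10 to LOC100362224 (0.099). S100b had no close neighbor, the nearest being TC612190 at 0.841. Among the 9 genes themselves the nearest pair was Gja1 and Slc4a4 at 0.311, where Slc4a4 ranked 12th among the neighbors of Gja1, and Gja1 ranked 32nd among those of Gjb6. These distances share the rats, arrays and dyes and are descriptions.

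The 250 bases before the annotated starts were searched on both strands, from the RefSeq promoter table on build GRCr8, which held 11 windows for the 9 genes. Of these windows 2 lay at the outermost start of their gene, and the only Slc4a4 window lay 109097 bases from its outermost start. Starts without a window were not searched. The motifs were the estrogen response element (GGTCANNNTGACC), its half-site (AGGTCA), AP-1 (TGANTCA), STAT (TTCNNNGAA), NFI (TGGCNNNNNGCCA) and CRE (TGACGTCA), of which the half-site could overlap a full element and the others overlap only by chance. They occur in 0.0239%, 14.1%, 6.34%, 7.67%, 0.732% and 1.59% of all 33469 windows. In the windows of the 9 genes there was 1 match, an AP-1 match 58 bases before a start of Gja1, shown with the match in capitals because it is the 1 found (chr20:36302495-36302523, GRCr8, plus strand).
Gja1, AP-1 match: ctccttccagtTGAGTCAgtggcttgaaa
The matches are of letters only, and no match says only that these letters are not in these windows.

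**Figure D5:**
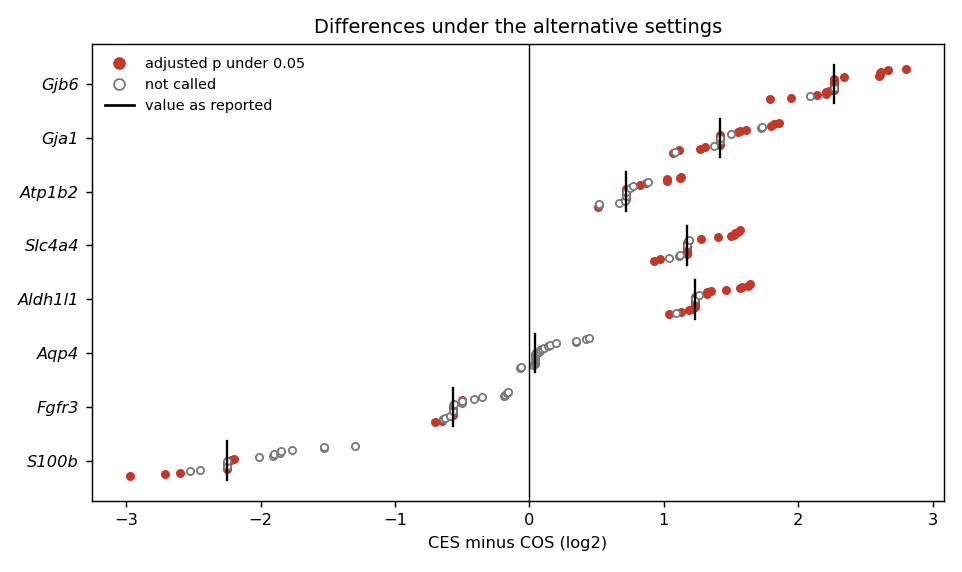
CES minus COS difference (log2) of 8 of the genes under each alternative setting, 1 point per setting, filled where the adjusted p was under 0.05, with a bar at the value as reported. Kcnj10 is left out because no rat showed it well above background. The points of the 5 higher genes and of Fgfr3 and S100b stay on 1 side of 0 throughout, and those of Aqp4 run from -0.07 to 0.44.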

How the data were processed

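RNA of 8 DG samples was measured on 4 two-color Agilent rat arrays, extracted with Agilent Feature Extraction 10.7.3.1 per the labels. As deposited, the scanner files give the mean intensity and background median of each spot and channel, before normalization by the authors. The authors also deposited log2 values, which equal the log2 background-subtracted median signal minus a constant per channel. All 8 columns were mapped to samples, leaving 0 unmapped.

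The 9 genes, the lists and the tests were chosen with earlier results of these data known. Control spots (1639) and spots marked as outliers by the scanner software were dropped, and a spot was valid where its foreground was at least 2 times background, which held in all 8 rats for 26294 spots. The background median was subtracted from the mean signal, each channel was scaled to the median of its valid spots, and values were averaged over the spots of a gene name and taken to log2. The groups were compared with limma 3.58.1 (R 4.3.3), two-sided, with dye as a fixed term and array as a random block (duplicateCorrelation, statmod 1.5.0, consensus correlation -0.0104), Benjamini-Hochberg adjustment over 20787 genes and a threshold of 0.05. The median SE of a difference was 0.197. Tested on simulated data of this layout over 20787 genes, the fit recovered 48 of 100 genes changed by 1 and 95 of 100 changed by 2 on the log2 scale, with 7 false calls. The simulation changed far fewer genes than the 7137 called here and drew the noise of each gene independently. Its rates therefore do not measure recovery or false calls in these data. No spot was saturated.

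Named genes are the 9, from each other functional list the called genes (at most 3 per direction, the largest differences) and the closest profile of each of the 9. Aldoc, Ntsr2, Panx1, Gjb2, Gfap, S1pr3, Tjp1, Tdo2, Fibcd1, Slc2a1, Cldn5, Sst, Pvalb and Ttr were added after their values were seen. Some genes of the lists are counted but not reported singly here. A level is not compared between genes, since probes differ in brightness. The alternatives covered background correction, scaling, filters, the model, the methods' t-test, the deposited table and leaving out each rat. Adding probes that the reference assigns to a member by accession found 0 further probes. Figures and tables were made with Python 3.11.15, numpy 2.4.6, pandas 2.3.3 and matplotlib 3.10.9, and sequences were read from the RefSeq tables (GRCr8) and the array files.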

Additional observations from a re-analysis of the deposited data

Results flagged for a closer look

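Among 56 groups of 4 rats examined, for the 9 genes and 19 named list genes, 6 held a rat whose gap to its nearest neighbor, over the range of the group, passed Dixon's 95% critical value for 4 samples, where chance gives about 1 in 20. CES replicate 2 was that rat in 4 of the 6: it was lowest for Gjb6 (level 2.15, ratio 0.831), Cldn10 (-0.62, 0.837) and Gjd2 (-0.41, 0.848) and highest for Cd44 (4.32, 0.856). The other 2 were Fgfr3, where CES replicate 4 was lowest (-0.44, 0.92), and Lcn2, where COS replicate 4 was lowest (3.58, 0.852). Dixon's ratio did not pick out any rat for S100b, whose values were spread over both groups.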

How the results depend on the processing

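Gjb6, Gja1, Aldh1l1, Slc4a4 and Atp1b2 stayed higher, and Fgfr3 and S100b lower, in CES under every alternative that gave a value, and what varied was whether they passed. Of the 23 alternatives, Gjb6 passed 21, Aldh1l1 20, Slc4a4 18, Gja1 16, Atp1b2 14 and Fgfr3 9, and S100b passed 9 of 22. The methods' t-test called 0 of the 9 and 0 of all genes after adjustment, with 3 of the 9 and 5900 of all genes at an unadjusted p under 0.05 (limma had 7 and 9400). Against 5 higher and 2 lower of the 9, there were 2 and 0 with normexp, 3 and 0 without a filter, and 0 lower under loess, quantile normalization, scaling on a common set of valid spots and the deposited table; 1 was lower with the processed signal, with the well above background mark and with the replicate block. Leaving out single rats gave 0 to 5 higher and 0 to 2 lower, with 0 and 0 without COS replicate 3. The cause of these changes was not tested. Over all genes, 1194 higher and 5943 lower (16.7% of calls higher) became 135 and 483 with normexp, 2996 and 1938 (60.7%) with loess, 3018 and 2249 (57.3%) with quantile normalization, 3380 and 1778 (65.5%) with scaling on that common set, 3210 and 1923 (62.5%) in the deposited table, and 633 higher without a filter; leaving out single rats gave 285 to 1805 higher and 1141 to 6940 lower, both lowest without COS replicate 3. The replicate number as a block gave 1197 and 6503, and among the 9 only Fgfr3 lost its call (-0.57, limma adjusted p = 0.0572); same-numbered rats share a dye, and with the dye removed their deviations correlated between -0.283 and 0.09, so the numbers do not pair them. Keeping spots marked as outliers, chosen after seeing the data, changed no call of the 9. Aqp4 changed sign without COS replicate 3 (-0.06) and CES replicate 3 (-0.07), over a range of -0.07 to 0.14 with single rats left out, and Kcnj10 with normexp (-0.06) and without COS replicate 4 (-0.05) or CES replicate 4 (-0.03), over a range of -0.05 to 0.29, none of them called. The number of arrays limits the precision. Kcnj10 had no value at 3 times background or with the well above background mark, and S100b none with the latter.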
